A study of Mus musculus with 8 samples.

Results

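The genes described here are 39 markers of glia, microglia and blood vessels, among 21887 protein-coding genes placed on a nuclear chromosome. They form a named list that uses no measured value as a limit: 14 genes of astrocytes and Bergmann glia, 14 of the oligodendrocyte lineage, 7 of microglia and 4 of blood vessels. A gene was counted as detected in a library when a peak of histone H3 acetylated at lysine 9 (H3K9ac) came within 1 kb of the start or the end of the gene. The peaks came from chromatin immunoprecipitation and sequencing (ChIP-seq) of mouse cerebellum. Of the 8 libraries, 4 were from C57BL/6 mice aged 9 weeks that were heterozygous for the 266Q knock-in, an ataxin-7 gene with 266 glutamine codons that models spinocerebellar ataxia type 7 (SCA7). The other 4 were from wild type C57BL/6 mice of the same age, and the knock-in mice were symptomatic with the wild type mice as their littermates. The series asks how this acetylation differs between the genotypes. The labels do not say that the replicates were separate animals, so a p-value here may rest on technical spread alone.

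H3K9ac marks the promoters of active genes, and chromatin from whole tissue holds each cell type in proportion to its nuclei. The cerebellum is dominated by granule neurons. Its astrocytes include the Bergmann glia, which wrap Purkinje cell dendrites and clear glutamate. Oligodendrocytes make myelin, microglia are the resident macrophages, and endothelial cells form the blood-brain barrier. In bulk tissue, fewer cells of a type and less acetylation per cell cannot be told apart.

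The 8 peak lists differed in length by far more than the genotypes did. Libraries are named KI1 to KI4 for knock-in replicates 1 to 4, and WT1 to WT4 for the wild type. The numbers of listed peaks were 10607 (KI1), 11268 (KI2), 5571 (KI3), 1266 (KI4), 11409 (WT1), 7735 (WT2), 3249 (WT3) and 1571 (WT4). Median peak widths were 1065 to 1246 bp in replicates 1 and 2 of both genotypes, here called the long lists, and 132 to 148 bp in replicates 3 and 4. Each count is therefore given beside the share of all protein-coding genes detected in the same library. The sources used here do not give the sequencing depth.

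Most of the 39 marker genes carried no H3K9ac peak at either gene end. A peak was listed in at least 1 library for 10 of the 39 (25.6%), against 45.0% of all protein-coding genes. At least 2 libraries had a peak at 5 members (12.8%), against 37.2% of all genes, and all 4 long lists had one at 3 members (7.69%), against 22.9%. The 10 detected genes were Slc1a2, Glul and Aldoc of the astrocyte class, Mbp, Olig1, Fa2h, Ugt8a and Myrf of the oligodendrocyte class, and Kdr and Slc2a1 of the vascular class. No microglial member had a peak at a gene end in any library. The median number of libraries with a peak was 0 for the members, as it was for all genes.

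In each long list the members were detected less often than protein-coding genes as a whole. In KI1 a peak was found at 7 of 39 members (17.9%), against 39.1% of all genes. In KI2 it was also 7 (17.9%), against 36.2%. WT1 had 5 (12.8%), against 31.9%, and WT2 had 3 (7.69%), against 27.8%. In the short lists 1 member was detected at most. KI3 had 1 member (2.56%), against 10.4% of all genes. There were 0 in KI4, against 0.896%, and 0 in WT3 and WT4, against 5.43% and 1.46%.

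**Figure D1:**
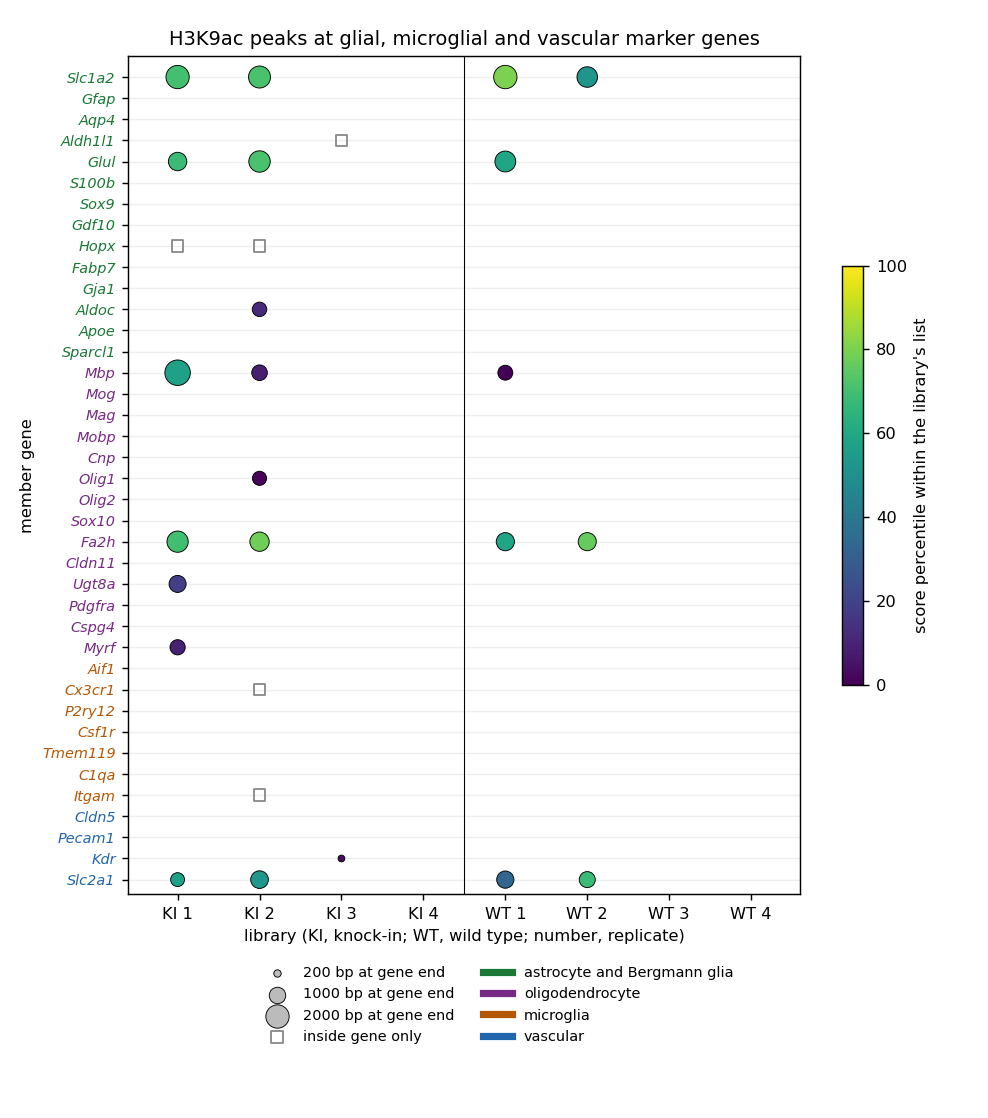
Peaks at the 39 member genes (rows, coloured by cell class) in the 8 libraries (columns). Filled circles are peaks at a gene end, with area by width in bp and colour by score percentile within the list. Open squares mark libraries whose peaks lay inside the gene and at neither end. All circles but that of Kdr stand in replicates 1 and 2, and the rows of microglial genes hold none.

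The same libraries listed peaks at most granule cell genes. Of 20 granule cell genes, 19 and 19 were detected in KI1 and KI2, and 18 and 17 in WT1 and WT2. This list was chosen with earlier results of these data known, and some of its genes are also used by other neurons. Of 20 Purkinje cell genes, 10 (KI1), 11 (KI2), 7 (WT1) and 8 (WT2) were detected. These shares were 50%, 55%, 35% and 40%, against 39.1%, 36.2%, 31.9% and 27.8% of all genes. In the short lists, granule cell genes still numbered 9 in KI3, 1 in KI4, 4 in WT3 and 4 in WT4. Zic2, a transcription factor of granule cells, had a peak in 7 libraries, while no member exceeded 4. Neuronal markers could lack a peak too: 8 of the 20 Purkinje cell genes, among them Pcp2 and Car8, had none at a gene end in any library. The other 12 (60%) had one in at least 1 library, against 45.0% of all genes.

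**Figure D2:**
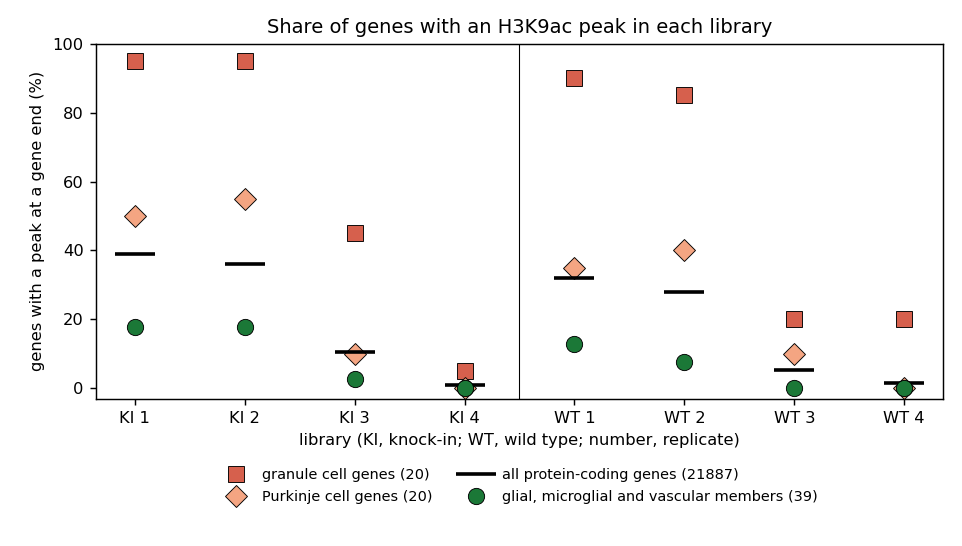
Percentage of genes with a peak at a gene end (vertical axis) in each library (horizontal axis) for the 39 members, 20 granule cell genes, 20 Purkinje cell genes and all 21887 protein-coding genes. The members lie below the mark for all genes in every library, and the granule cell genes lie above it.

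Of the 14 astrocyte members, Slc1a2, Glul and Aldoc carried peaks. Slc1a2 encodes the glutamate transporter GLT-1 (chromosome 2, 102658239 to 102790784, build mm10). Its peak was 1991 and 1781 bp wide in KI1 and KI2 and 2007 and 1553 bp wide in WT1 and WT2. The peak was absent from all 4 short lists. All 4 peaks covered the lower-coordinate end of the gene and shared a core of 1473 bp, from 102657906 to 102659378. Their score percentiles, where 100 is the highest score of a list, were 70.2 (KI1), 71.2 (KI2), 80.2 (WT1) and 52.1 (WT2), so the genotypes overlapped. The peaks also overlapped the window of LOC115489466, a long noncoding RNA gene. Slc1a2 thus counted 2 libraries in each genotype.

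Glul encodes glutamine synthetase, which turns the captured glutamate into glutamine (chromosome 1, 153899929 to 153909723). Its peak measured 1248 and 1684 bp in KI1 and KI2 and 1599 bp in WT1, at score percentiles 68.3, 71.2 and 59.2. WT2, the shortest of the long lists, had none. The 3 peaks shared 1177 bp and covered the annotated start site. They reached the windows of Gm38440 and Mir8114, both noncoding.

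Aldoc encodes aldolase C, also known as zebrin II, which is made by astrocytes and by stripes of Purkinje cells. Its 1 peak, in KI2, was 770 bp wide, ranked at percentile 11.0 and began 590 bp beyond the upper-coordinate end of the gene. This was the end away from the annotated start, and the peak also lay in the window of the neighbouring gene Pigs. No library had a peak at the start of Aldoc.

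The other 11 astrocyte members had no peak at either end. They were Gfap (an intermediate filament), Aqp4 (a water channel), Aldh1l1 (a folate enzyme), S100b (a calcium-binding protein), Sox9 (a transcription factor of glia), Gdf10 (a growth factor of Bergmann glia), Hopx, Fabp7 (a lipid carrier), Gja1 (the gap junction protein connexin 43), Apoe (a lipoprotein) and Sparcl1. The nearest peak of any long list was 238 kb away for Aqp4 and 261 kb away for Gja1. For Gfap it was 5.80 kb away and for Fabp7 6.18 kb.

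Hopx (chromosome 5, 77086986 to 77115123) was missed by the windows at the gene ends but had a peak at an internal start. KI1 and KI2 had peaks of 892 and 914 bp, at score percentiles 7.65 and 25.5. They lay at a start annotated 19856 bp into the gene, with 21 CG dinucleotides in its 300-base promoter. The outer start had 8 and no peak. No wild type library had a peak at Hopx. When genes were tested at the start sites of the promoter table, its two-sided conditional exact p was 0.507 and its adjusted p was 1. Aldh1l1 had a peak of 153 bp inside the gene in KI3, 30969 bp from its start.

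Of the 14 oligodendrocyte members, 5 were detected. Fa2h encodes the hydroxylase that makes the 2-hydroxy fatty acids of myelin lipids (chromosome 8, 111345138 to 111393821). Its peak was 1658 and 1377 bp wide in KI1 and KI2 and 1211 and 1206 bp wide in WT1 and WT2. Both wild type peaks were narrower than both knock-in peaks. The lists as a whole also had the lower median widths in wild type, at 1118 and 1065 bp against 1246 and 1144 bp. For gene-end peaks alone the medians overlapped, at 1278 and 1105 bp (WT1, WT2) against 1304 and 1268 bp (KI1, KI2). The widths at Slc1a2 and Slc2a1 overlapped between genotypes too. The share of all genes with such an order of widths was not computed. Score percentiles were 69.8 (KI1), 78.0 (KI2), 58.6 (WT1) and 76.2 (WT2), which overlapped. All 4 peaks covered the upper-coordinate end of the gene, shared 1059 bp and lay in no other gene's window.

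Mbp encodes myelin basic protein (chromosome 18, 82475091 to 82585637). Its peak at the lower-coordinate end was 2388 and 894 bp wide in KI1 and KI2 and 818 bp wide in WT1. The score percentiles were 57.4, 8.32 and 0.495, so 2 of the 3 peaks were among the weakest of their lists. The 3 peaks shared 418 bp. This gene has several starts: the outermost gives the golli transcripts, found in neurons and immune cells too, and the start used for the myelin protein lies further in. The peaks lay at the outermost end. The rest of the gene held 1 peak, of 711 bp, in WT1, which began 39840 bp inside that end.

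**Figure D3:**
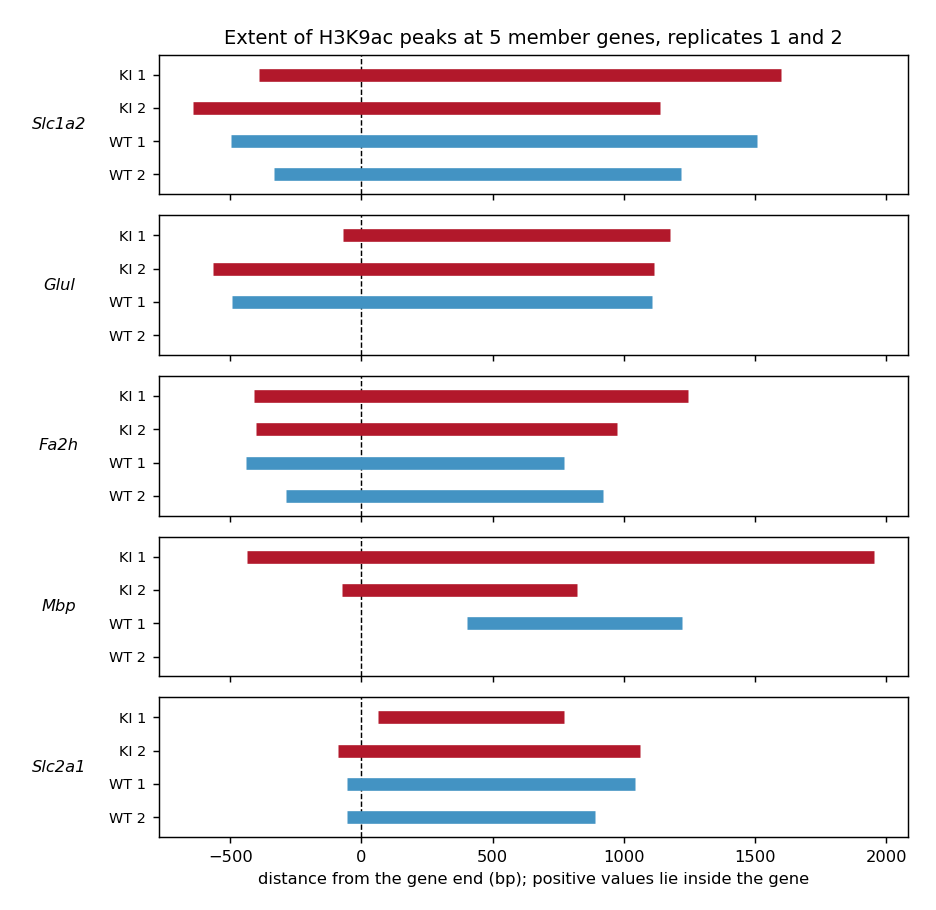
Extent of each gene-end peak (horizontal bars) at the 5 members detected in at least 3 libraries, in bp from the gene end (0, dashed), with positive values inside the gene, for replicates 1 and 2 of knock-in (red) and wild type (blue). Replicates 3 and 4 had no peak at these genes. The bars of Slc1a2, Glul and Fa2h cross the gene end in every library that has one, and Mbp has the most uneven widths.

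Each of the remaining 3 oligodendrocyte genes rested on 1 knock-in library. Olig1 encodes a transcription factor of the lineage, and its peak in KI2 was 736 bp wide at percentile 1.06. Ugt8a encodes the enzyme that makes galactosylceramide. Its peak in KI1 was 1066 bp wide at percentile 18 and covered the annotated start. Myrf encodes the transcription factor that switches on myelin genes, and its peak in KI1 was 852 bp wide at percentile 9.14. All 3 were therefore in the lowest 20% of their lists by score.

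The 9 oligodendrocyte members without a peak were Mog, Mag and Mobp (myelin proteins), Cnp (a phosphodiesterase of myelin), Cldn11 (a tight junction protein of myelin), the transcription factors Olig2 and Sox10, and Pdgfra and Cspg4, which mark oligodendrocyte precursors. Olig2 lies on the same chromosome as Olig1, and its nearest peak in a long list was 29.8 kb away. The nearest peak was 40.6 kb from Mag and 106 kb from Pdgfra.

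All 7 microglial members lacked a peak at their ends in all 8 libraries. They were Aif1 (the protein IBA1), Cx3cr1 (the fractalkine receptor), P2ry12 (a purine receptor), Csf1r (the receptor that microglia need to survive), Tmem119, C1qa (a complement subunit) and Itgam (the integrin CD11b). The median distance from a gene end to the nearest peak of any long list was 20.0 kb for these genes, against 4.07 kb for all genes. KI2 had a peak inside Cx3cr1, 544 bp wide at percentile 32.6, and another inside Itgam, 937 bp wide at percentile 40.2. Neither lay within 10 kb of the annotated start of its gene.

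Of the vascular members, Slc2a1 was detected in every long list. It encodes GLUT1, the glucose transporter of the blood-brain barrier, which other cells also make (chromosome 4, 119108745 to 119137330). Its peak was 709 and 1149 bp wide in KI1 and KI2 and 1095 and 946 bp in WT1 and WT2. Percentiles were 57.1 (KI1), 52.8 (KI2), 32.9 (WT1) and 68.2 (WT2), so the wild type values lay on both sides of the knock-in values. The 4 peaks shared 709 bp and also reached the window of the noncoding gene Gm52706. Kdr, a receptor for vascular endothelial growth factor, had 1 peak of 168 bp in KI3, at percentile 3.76 and 895 bp beyond the end of the gene away from its start. Cldn5, the tight junction protein of endothelium, and Pecam1, an endothelial adhesion protein, had none. Their nearest peaks in a long list were 58.2 and 40.7 kb away.

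Promoter sequences of 5 members are shown because they place the starts with and without a peak side by side. They come from RefSeq on build GRCm38.p6 (mm10) and run from 250 bases before to 50 after the start. CG dinucleotides, the letters CG on either strand, are in capitals. Slc2a1 (chr4:119108495-119108794, plus strand) had 18, a number reached by 29.7% of the 32851 promoters in the table, and 4 libraries had a peak within 1 kb of this start. Glul (chr1:153899679-153899978, plus strand) had 17, reached by 31.4%, and 3 libraries with a peak. The entry of Slc1a2 (chr2:102706188-102706487, plus strand) lies 48199 bp inside the gene, away from the peak described above. It had 1, reached by 94.6%, and no library with a peak. Aif1 (chr17:35176003-35176302, minus strand) also had 1 and no peak. Gdf10 (chr14:33923337-33923636, plus strand) had 42, reached by 3.03%, and no peak. Glul and Gdf10 were added after their values were seen.
Slc2a1: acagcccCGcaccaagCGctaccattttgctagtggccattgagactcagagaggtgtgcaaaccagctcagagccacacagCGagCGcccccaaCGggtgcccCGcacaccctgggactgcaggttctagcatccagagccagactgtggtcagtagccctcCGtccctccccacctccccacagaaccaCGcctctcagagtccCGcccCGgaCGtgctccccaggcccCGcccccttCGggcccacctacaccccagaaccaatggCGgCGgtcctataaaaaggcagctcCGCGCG
Glul: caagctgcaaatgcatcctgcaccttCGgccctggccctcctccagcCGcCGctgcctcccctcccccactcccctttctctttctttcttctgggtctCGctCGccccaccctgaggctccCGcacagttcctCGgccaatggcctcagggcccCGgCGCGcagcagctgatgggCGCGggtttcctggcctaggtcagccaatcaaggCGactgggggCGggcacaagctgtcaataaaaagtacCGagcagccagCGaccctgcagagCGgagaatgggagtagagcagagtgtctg
Slc1a2: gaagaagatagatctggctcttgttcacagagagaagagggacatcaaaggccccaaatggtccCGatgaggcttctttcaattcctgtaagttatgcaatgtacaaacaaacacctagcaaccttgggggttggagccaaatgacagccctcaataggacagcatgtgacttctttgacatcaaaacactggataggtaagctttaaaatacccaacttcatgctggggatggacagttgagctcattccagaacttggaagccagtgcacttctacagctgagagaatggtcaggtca
Aif1: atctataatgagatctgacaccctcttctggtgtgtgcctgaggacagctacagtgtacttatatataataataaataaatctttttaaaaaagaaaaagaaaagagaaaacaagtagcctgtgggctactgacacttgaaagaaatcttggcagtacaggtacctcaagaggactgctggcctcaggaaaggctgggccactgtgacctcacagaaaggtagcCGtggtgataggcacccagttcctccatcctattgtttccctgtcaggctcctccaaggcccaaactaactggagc
Gdf10: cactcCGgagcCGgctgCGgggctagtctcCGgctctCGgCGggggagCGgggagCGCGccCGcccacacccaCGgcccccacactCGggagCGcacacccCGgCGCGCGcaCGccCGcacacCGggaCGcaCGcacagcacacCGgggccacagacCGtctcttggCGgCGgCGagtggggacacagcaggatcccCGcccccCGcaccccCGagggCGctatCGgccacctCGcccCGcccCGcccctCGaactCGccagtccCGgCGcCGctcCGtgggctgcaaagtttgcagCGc

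A promoter rich in CG was thus found both with a peak (Slc2a1, Glul) and without (Gdf10). Olig2, with 25 CG dinucleotides, and Cldn11, with 24, had no peak either, and Ugt8a, with 40, had its 1 weak peak. The table held an entry for 27 of the 39 members (69.2%), below the 80% set for a comparison over the members, so such a comparison of CG content is void. Aqp4, Sox9, Sparcl1, Mbp, Olig1, Sox10, Fa2h, Myrf, Csf1r, Tmem119, C1qa and Pecam1 had no entry.

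The peaks of members had score ranks on both sides of the median of all detected genes. The median percentile of detected members was 57.4 and 52.8 in KI1 and KI2, against 57.5 and 62.2 over all detected genes. It was 58.6 and 68.2 in WT1 and WT2, against 65.7 and 57.4. The highest member in each of these lists was Slc1a2 at 70.2, Fa2h at 78.0, Slc1a2 at 80.2 and Fa2h at 76.2. Of the 7, 7, 5 and 3 detected members, 0, 0, 1 and 0 stood in the top 20% of the list (0%, 0%, 20% and 0%). Over all detected genes 23.7%, 26.7%, 29.9% and 23.4% did, so about 1 or 2 members a list would match that share. Of the 19, 19, 18 and 17 detected granule cell genes, 10, 10, 13 and 10 did. Slc1a2 in WT1 was just inside that limit and Fa2h in KI2 just outside.

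**Figure D4:**
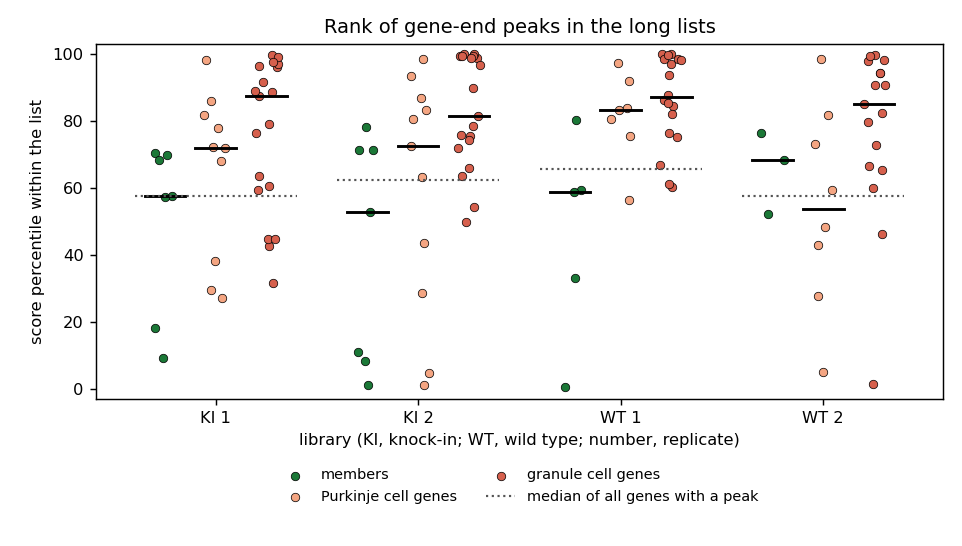
Score percentile of the highest gene-end peak of each detected gene (points) in the 4 long lists, for members, Purkinje cell genes and granule cell genes. Black bars are medians and dotted lines the median of all detected genes. Members reach 80.2 at most, while granule cell genes reach 99.7 or more in every long list.

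More knock-in than wild type libraries had a peak at 7 members, and the reverse held for none. The 7 were Glul, Aldoc, Mbp, Olig1, Ugt8a, Myrf and Kdr, which is 17.9% of the members, against 21.6% of all protein-coding genes found in more knock-in libraries. Among all genes 5.23% were found in more wild type libraries. Slc1a2, Fa2h and Slc2a1 were found equally often. Of the 7, Aldoc, Olig1, Ugt8a, Myrf and Kdr rested on 1 library each: without KI1 or KI2 the 7 became 3, and 3 members were then found in more wild type libraries. Those counts set 3 knock-in against 4 wild type libraries.

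The ranges of the number of detected members overlapped between the genotypes, and the numbers were lowest in the short lists. Among the long lists they did not follow the number of peaks: WT1, with 11409 peaks, had 5 members, and KI1, with 10607, had 7. They did fall in the order of all protein-coding genes detected, which numbered 8565 (KI1), 7927 (KI2), 6977 (WT1) and 6076 (WT2). The cause was not tested. The number of detected members was 3.75 ± 3.77 in knock-in (SD, n = 4) and 2 ± 2.45 in wild type (SD, n = 4). Values ranged from 0 to 7 and from 0 to 5. Set side by side by replicate number, knock-in and wild type had 7 and 5 in replicate 1, 7 and 3 in replicate 2, 1 and 0 in replicate 3, and 0 and 0 in replicate 4. Knock-in was thus higher in 3 of the 4 pairs and equal in the other one. The detected share of all genes was also higher in knock-in in those 3 pairs, as given above. With every list reduced to its 1266 highest-scoring peaks, no member was detected in any library, but only 0.896% to 5.48% of all genes were then detected, so this 0 says little about 39 genes. No gene was called in a two-sided conditional exact test that allows for library-specific detection odds, with Benjamini-Hochberg adjustment over 9826 genes: 0 genes passed (0%), 90 had an unadjusted p under 0.05, and Fisher's exact test, whose smallest p was 0.143, called 0. For each of the 10 detected members the conditional exact test gave p = 1 and an adjusted p = 1. With the replicate number as a block, 7 members could be fitted. Each of them rested on 1 pair of same-numbered libraries, with a peak in the knock-in library only. From 1 pair no member could have been called, so the block test adds nothing for the members. By the conditional exact test a gene in 1 library has a p of 0.198 or 1, so Aldoc, Olig1, Ugt8a, Myrf and Kdr could not have been called. Glul and Mbp were in 3 libraries, where the lowest p is 0.000151. That is above the smallest p found for any gene (8.41e-05), which was not called. A gene in 4 libraries reaches a p of 2.93e-07 only with a peak in all 4 wild type libraries and in no knock-in library. Slc1a2, Fa2h and Slc2a1 were each in the 4 long lists alone, which are 2 libraries of each genotype. A gene found in exactly these lists could not have been called, so the test adds nothing for these members.

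Further genes of the same cell types were counted in the same way. Of 20 further astrocyte genes 7 (35%) were detected in 1 library or more, as were 5 of 20 further oligodendrocyte genes (25%), 3 of 20 microglial genes (15%) and 2 of 20 vascular genes (10%), against 45.0% of all genes. Among the members the shares were 21.4%, 35.7%, 0% and 50%, the last over 4 genes. In the astrocyte list, Acsl6 (a fatty acid-activating enzyme), where a peak also reached the window of the noncoding gene Gm51861, was in all 4 long lists. Cst3, which encodes cystatin C, and Slc4a4, a bicarbonate transporter, were in 3 of them. Slc1a3, which encodes GLAST, the other main glutamate transporter of astrocytes, had a peak in 0 libraries, unlike Slc1a2. In the oligodendrocyte list, Car2, a carbonic anhydrase, was in 5 libraries and Tspan2 in 4, and Gal3st1, which makes sulfatide, was in 1. A peak at Tspan2 also reached the window of the noncoding gene Tspan2os. The microglial genes Irf8 and Ly86 had a peak in 1 library each, at score percentiles 2.88 (KI2) and 1.3 (WT1). Of the vascular genes Foxq1 was in 2, at percentiles 21.4 (KI1) and 22.6 (WT2), and Mfsd2a was in 1. None of these genes was called between genotypes.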

How the data were processed

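H3K9ac peak lists of 8 cerebellar libraries were used. The submitters' processing notes name Bowtie2 and the build mm10. Per the file headers, peaks were called with MACS in Galaxy, with 1 list per library; no source used here gives the version, the settings or any input control. The deposited score is the authors' value per peak, of unstated scale and at least 50 in every list, and served here for ranks within a list. Starts below 0 (15 of 52676 peaks) were set to 0.

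Gene ends came from RefSeq on GRCm38.p6, the assembly of mm10. An overlap of 1 bp counted. A window can hold a neighbour's peak and misses internal starts. Per gene, the knock-in number of libraries with a peak was tested given the total, with detection odds from a Rasch model (Python 3.11.15, SciPy 1.17.1) and a threshold of 0.05. The test was tested on simulated data. Members, the 10 gene lists and tests were chosen with earlier results of these data known. All members with a peak were described, others named by class. Of the other lists up to 3 genes in the most libraries could be named; Pcp2, Car8 and Slc1a3 were chosen after their values were seen. The values of 1 gene of these lists are not reported here.

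Same-numbered libraries deviated together from their group means over all genes (correlations 0.487, 0.388, 0.389 and 0.754), which passes the limit of 0.1 for pairing. So did libraries of different numbers within replicates 1 and 2, at 0.393 (KI1 with WT2) and 0.46 (KI2 with WT1). Within replicates 3 and 4 the values were 0.277 (KI3 with WT4) and 0.547 (KI4 with WT3). Every pair of a long list with a short one was negative. The correlations therefore do not single out libraries of the same number. The labels do not say what a number marks, and the long lists are those of numbers 1 and 2.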

Additional observations from a re-analysis of the deposited data

Results flagged for a closer look

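The number of vascular members with a peak was 0 in knock-in replicate 4 and 1 in each of the other 3 knock-in libraries, which put that library apart from the rest of its group. Knock-in replicate 4 had the shortest list, of 1266 peaks. In knock-in replicates 1 and 2 the gene was Slc2a1 and in replicate 3 it was Kdr. Over the 8 groups of libraries screened this was the 1 such result, and chance gives about 1 in 20 for continuous values. These were counts over 4 genes, and with 3 libraries at exactly 1 any other count in the fourth would have been set apart.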

How the results depend on the processing

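The 10 members detected became 5 with peaks scoring above the median of their list (Slc1a2, Glul, Mbp, Fa2h, Slc2a1), 4 at the start sites of the promoter table, 1 in replicates 3 and 4 alone and 0 with lists of equal length (1266 peaks each). They ranged from 8 to 10 when 1 library was left out. Over whole genes plus 1 kb the 10 became 14, which added Aldh1l1, Hopx and the microglial Cx3cr1 and Itgam. The 7 found in more knock-in libraries became 3 by scores above the median and 3 at promoter starts. Over whole genes plus 1 kb they became 11, in replicates 3 and 4 alone 1, and with equal lengths 0. They ranged from 3 to 10 when 1 library was left out. The 0 found in more wild type libraries ranged from 0 to 3 then. These counts compare 3 libraries with 4. The promoter table has no entry for 12 of the 39 members, among them the detected Fa2h, Mbp, Olig1 and Myrf. Its entry for Slc1a2 lies 48199 bp inside the gene. The lower counts at promoter starts thus partly reflect missing or internal entries. Per library, equal lengths gave 0 members in every list, with 0.896% to 5.48% of all genes detected. By scores above the median knock-in replicates 2 and 3 had 4 and 0 and wild type replicate 1 had 3. With a window of 500 bp knock-in replicate 3 had 0. Over all genes, calls ranged from 0 to 1 when 1 library was left out; the 1 was Lrrc74b, without wild type replicate 2. With the replicate block 0 genes and 0 members were called, and the block changed no call. For the members it could not have made one, as each member fitted rested on 1 pair of libraries. The causes were not tested. Short lists limit what 0 peaks can show: a member without a listed peak is not shown to lack the mark.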

Other observations

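Some peaks at the windows of neighbouring genes lay close to members without being counted for them. Which gene such a peak belongs to was not tested. Beyond the end of Gdf10, 5 libraries had a peak 3014 to 3636 bp from the gene, at a window of Gdf2, which encodes another growth factor of the same family. These were knock-in replicates 2, 3 and 4, at 591, 188 and 122 bp wide, and wild type replicates 1 and 2, at 788 and 816 bp wide. Gdf10 itself, with a promoter of 42 CG dinucleotides, had none. Near Myrf, knock-in replicates 1 and 2 and wild type replicate 2 had a peak of 802, 728 and 848 bp at the windows of Fen1 and Tmem258, 3892 to 3916 bp from Myrf.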
